A study of Mus musculus with 2 samples.

Results

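An activated regulatory T (Treg) blast is a Treg that has met antigen and switched to growth. Here the name was given to T cell barcodes of neonatal spleen with RNA of Tnfrsf9 or of 5 genes found with it. Whether these cells had met antigen was not measured. A barcode stands for a droplet that held a cell. A barcode was kept with at least 300 genes, at least 2000 unique molecular identifiers (UMIs) and at most 5% mitochondrial UMIs, and was called a T barcode with at least 3 UMIs over Cd3d, Cd3e, Cd3g, Trac and Trbc2. T barcodes with more than 4 UMIs over the division genes Mki67, Top2a, Birc5 and Pclaf, or with any UMI of Klrg1 or Cxcr3, were set apart, and the blasts were those of the remaining barcodes with at least 3 UMIs in sum over Nefh, Lad1, Bcat1, Penk, Pdzk1ip1 and Tnfrsf9 (the gate genes). These measured values chose 1012 blasts, 356 of 6256 T barcodes in the WT library and 656 of 8338 in the KO library, out of 32658 barcodes in all. The remaining barcodes that met every condition but the gate are called gate-negative, and there were 3367 of them in WT and 5827 in KO.

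The series holds 2 libraries of droplet single-cell RNA-seq from sorted YFP+7AAD- splenic cells of 7-day-old C57BL/6J mice, 1 for each genotype, and compares Treg with and without the zinc finger protein Zfp335. The KO mice carried Zfp335 fl/fl with Foxp3-Cre, a Cre recombinase with YFP expressed from the Foxp3 locus, so that deletion was limited to cells that use Foxp3. The WT mice carried the same Foxp3-Cre allele by the methods of the study, so Cre and YFP were common to both groups. The number of animals behind each library was not given in the sources used here. With 1 library for each genotype there was no replicate, and no difference below has a test. Every interval is a 95% interval that covers counting error only.

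Treg suppress immune responses and depend on the transcription factor Foxp3. When their antigen receptor is engaged they induce costimulatory receptors of the tumour necrosis factor (TNF) receptor family, among them Tnfrsf9 (4-1BB, CD137), Tnfrsf4 (OX40) and Tnfrsf18 (GITR), enlarge, make ribosomes and take up amino acids before they divide. Cells of this kind leave the circulating resting pool, which is marked by the homing receptor Ccr7 and by the transcription factor Klf2.

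The blasts carried more UMIs of Treg genes than gate-negative barcodes did. Few carried markers of B cells, other T lineages, macrophages, dendritic cells or mast cells, whereas neutrophil and erythroid markers were more common. The summed UMIs of 6 Treg genes (Foxp3, Il2ra, Ctla4, Ikzf2, Tnfrsf18 and Tnfrsf4) had a median of 18 in WT blasts and 15 in KO blasts, against 6 and 4 in gate-negative barcodes. These sums were not scaled to depth. Scaled to depth, the ratio to gate-negative barcodes was 3.63 (WT) and 2.74 (KO) for Tnfrsf4 and 1.82 and 1.86 for Tnfrsf18. It was 1.27 and 1.29 for Il2ra, 1.19 and 1.37 for Ctla4, and 1.13 and 1.27 for Ikzf2. For Foxp3 it was 0.689 and 0.846. At least 3 UMIs of B cell markers were found in 2 WT and 2 KO blasts, and none carried 3 UMIs of macrophage, dendritic cell or mast cell markers. Natural killer and gamma delta T cell markers reached 3 UMIs in 2 and 2 blasts, and thymocyte markers in 3 and 8. CD8 transcripts had a median of 0 in both libraries. Blasts held a median of 7586 UMIs in WT (2025 to 19220) and 7007 in KO (2004 to 28659), whereas gate-negative barcodes held 4649 and 3722, so the gate also drew deeper barcodes. The libraries shared 70 barcode sequences, of which 1 in each library belonged to a blast.

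RNA from red cell precursors and neutrophils was present throughout and differed between the libraries. At least 3 UMIs over 7 erythroid markers, globins included, were carried by 28.9% of WT and 61.9% of KO blasts, against 21.4% and 52.1% of gate-negative barcodes. For 6 neutrophil granule genes the shares were 35.7% and 16.3% of blasts, against 22.5% and 14.4% of gate-negative barcodes. These genes took 0.0650% and 0.129% of blast UMIs. Of the granule UMIs, many lay in 1 WT blast and 2 KO blasts, which held 836, 3356 and 747 UMIs of S100a8 and S100a9, whereas no other blast exceeded 8 in WT or 50 in KO. Without these 3 blasts the granule genes took 0.0262% of blast UMIs in WT and 0.0196% in KO, so that the order of the libraries turned.

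Zfp335 on chromosome 2 (GRCm38, 164891882 to 164911757, minus strand), the targeted gene, gave 21 UMIs in 21 WT blasts and 1 UMI in 1 KO blast. Its level was 7.19 UMIs of the gene for every 1000000 UMIs (CPM; 4.45–10.98) in WT and 0.195 (0.00493–1.08) in KO, a KO to WT ratio of 0.0271 (0.000655–0.168). In gate-negative barcodes the ratio was 0.127 (0.0819–0.192). The targeted gene thus went with the genotype labels, although the deposited counts do not show which exons its reads came from.

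Of the gate genes, Tnfrsf9 was seen in the most blasts. Tnfrsf9, a costimulatory receptor induced by antigen receptor signals, lies on chromosome 4 (150914562 to 150946102, plus strand) and was detected in 300 WT blasts (84.3%) and 524 KO blasts (79.9%). Without its UMIs, 177 WT (49.7%) and 290 KO (44.2%) blasts would have missed the gate. The matched RefSeq table (GRCm38.p6) listed a pair of starts for it. Both starts lie inside the gene span given above, past its first base. The 250 bases before each listed start of this gate gene, the one seen in the most blasts, are printed 5′ to 3′. A kB site (GGGA, any base, TT, any base, then CC) and an AP-1 site (TGACTCA), both read on either strand, are in capitals:
Tnfrsf9, start nearer the 3′ end, chr4:150927749-150927998, plus strand: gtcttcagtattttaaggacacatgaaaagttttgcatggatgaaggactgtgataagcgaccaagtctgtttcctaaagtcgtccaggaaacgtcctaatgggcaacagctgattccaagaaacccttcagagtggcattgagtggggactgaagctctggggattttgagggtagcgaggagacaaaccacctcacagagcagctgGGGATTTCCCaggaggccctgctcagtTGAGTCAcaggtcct
Tnfrsf9, upstream start, chr4:150919905-150920154, plus strand: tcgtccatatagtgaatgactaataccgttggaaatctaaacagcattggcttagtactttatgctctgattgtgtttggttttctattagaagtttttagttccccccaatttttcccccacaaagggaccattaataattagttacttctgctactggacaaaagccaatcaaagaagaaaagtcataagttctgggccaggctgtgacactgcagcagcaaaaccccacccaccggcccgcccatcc

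The first of these held both letter strings, with the kB site beginning at −42 and the AP-1 site at −15 from the start, and they did not overlap. The second held neither. Over all 32851 promoter windows of 300 bases (250 before to 50 after a start) a kB site was present in 1.20% and an AP-1 site in 5.20%. The counts do not show which start was used, and a match of letters is not evidence of binding. Of the 6 gate genes, 4 were in the table with 6 windows. An E-box (CACGTG) was found in one of them, at −192 of Pdzk1ip1, and in 7.15% of all windows:
Pdzk1ip1, chr4:115088458-115088707, plus strand: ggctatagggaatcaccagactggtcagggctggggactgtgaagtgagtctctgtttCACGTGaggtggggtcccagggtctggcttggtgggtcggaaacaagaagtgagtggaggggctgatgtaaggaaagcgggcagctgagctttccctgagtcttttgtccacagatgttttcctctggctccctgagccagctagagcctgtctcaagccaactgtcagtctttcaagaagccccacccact

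Penk, the precursor of enkephalin opioid peptides (chromosome 4, 4133531 to 4138819, minus strand), reached the highest UMI numbers in single blasts. It was detected in 159 WT (44.7%) and 241 KO (36.7%) blasts, with up to 67 and 48 UMIs in a single blast, and 5 blasts held 22.2% of its UMIs in WT and 12.4% in KO. Lad1, which encodes the anchoring protein ladinin (chromosome 1, 135818598 to 135833342, plus strand), was detected in 111 WT blasts (31.2%) and 370 KO blasts (56.4%). Nefh, the neurofilament heavy chain (chromosome 11, 4938754 to 4948064, minus strand), was detected in 90 (25.3%) and 189 (28.8%), so most blasts carried no Nefh UMI in spite of its place among the markers. Bcat1, the cytosolic branched-chain aminotransferase (chromosome 6, 144993835 to 145076184, minus strand), was seen in 17.1% and 17.2%, and the membrane protein gene Pdzk1ip1 (chromosome 4, 115088708 to 115093899, plus strand) in 14.0% and 13.0%. More than 1 gate gene was seen in 273 WT (76.7%) and 521 KO (79.4%) blasts, and at least 3 in 110 (30.9%) and 252 (38.4%).

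The gate cut a range and not a separate cluster. The gate sum was 2, just outside, in 259 WT and 486 KO barcodes, and 3, just inside, in 101 and 214. It reached at least 10 in 73 WT (20.5%) and 125 KO (19.1%) blasts. T barcodes set apart by the rule carried the gate genes too, since 28.0% of WT and 25.0% of KO dividing T barcodes, and 13.2% and 15.5% of those with Klrg1 or Cxcr3, summed to at least 3.

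**Figure D1:**
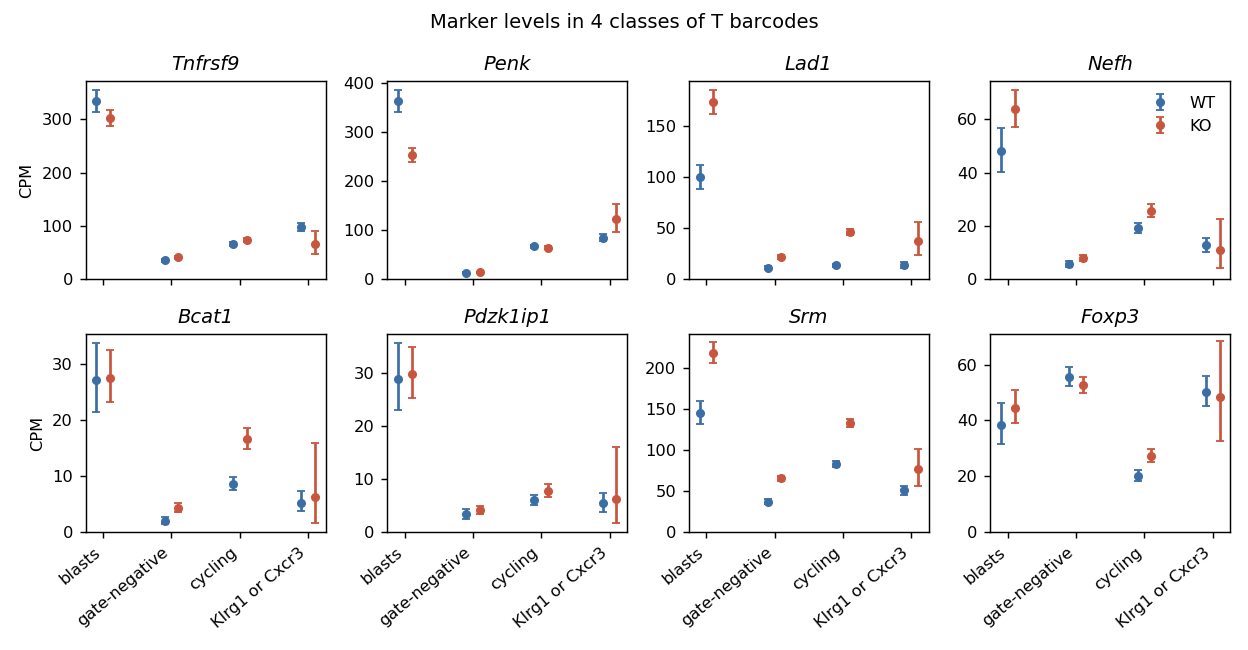
Levels in CPM of the gate genes, Srm and Foxp3 in blasts, gate-negative, dividing and Klrg1 or Cxcr3 T barcodes of each library, with 95% counting intervals. Srm, which the gate did not use, was at 145 CPM in WT and 218 in KO blasts and lower in the other 3 T classes, whereas Foxp3 was at 38.3 and 44.6 CPM and higher in gate-negative barcodes.

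The levels of the gate genes in blasts were set in part by the rule and are given as a description. Tnfrsf9 stood at 334 CPM (313–356) in WT blasts and 303 (288–318) in KO blasts, against 35.9 and 41.6 in gate-negative, 66.3 and 73.8 in dividing, and 97.6 and 66.9 in Klrg1 or Cxcr3 barcodes. Penk stood at 363 CPM (342–386) and 254 (240–268) in blasts. Its second highest class was the Klrg1 or Cxcr3 barcodes, at 85.1 (78.4–92.2) and 123 (97.3–153).

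Among these genes Lad1 differed most between the genotypes in blasts. Its level was 99.6 CPM (88.5–112) in WT blasts and 173 (162–185) in KO blasts, a ratio of 1.74 (1.52–1.99), and in gate-negative barcodes the ratio was 1.91. Nefh was at 47.9 CPM (40.3–56.5) and 63.6 (56.9–70.9), a ratio of 1.33 (1.09–1.63). Penk went the other way in blasts, with a ratio of 0.699 (0.644–0.758), and was near equal in gate-negative barcodes, at 14.1 and 14.3 CPM. Bcat1 and Pdzk1ip1 had ratios of 1.01 and 1.04 in blasts. These ratios in blasts are of genes that chose the blasts, so they are a description only. Without Lad1 UMIs, 35 WT (9.83%) and 157 KO (23.9%) blasts would have missed the gate. Over blasts and gate-negative barcodes together, each thinned to 2000 UMIs, a Penk UMI was seen in 5.45% of WT and 5.49% of KO.

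Gate genes were also measured in barcodes that they had not chosen. For each gene, barcodes with at least 3 UMIs of the other 5 were set against those with none of the other 5. Tnfrsf9 was 4.32-fold (3.799–4.91) higher in WT and 4.08-fold (3.71–4.48) higher in KO. Penk was 10.8-fold (9.36–12.5) and 4.28-fold (3.81–4.81) higher, and Bcat1 19.2-fold (10.9–36.1) and 4.79-fold (3.56–6.46). All 12 ratios (6 genes in 2 libraries) were above 1, and they lay between 3.57 and 16.7 when both sides were limited to barcodes of 5000 to 15000 UMIs. The gate genes were chosen with earlier results of these data known, so these ratios describe their overlap and are not a check of the gate.

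Spermidine synthase, Srm, a polyamine enzyme and the remaining marker of these cells (chromosome 4, 148591503 to 148594993, plus strand), took no part in the gate. It was at 145 CPM (132–160) in WT and 218 (205–231) in KO blasts, against 36.9 (34.1–39.9) and 65.5 (62.4–68.7) in gate-negative barcodes, and it was higher still in WT erythroid barcodes, at 174 (157–193). Foxp3, on chromosome X (7573644 to 7595245, plus strand), was lower in blasts, at 38.3 CPM (31.6–46.1) and 44.6 (39.0–50.7), than in gate-negative barcodes, at 55.6 (52.2–59.3) and 52.7 (49.9–55.6). A Foxp3 UMI was seen in 24.7% of WT and 26.2% of KO blasts, or in 9.83% and 7.93% when each barcode was thinned to 2000 UMIs, and in 0% and 2.30% of thinned erythroid barcodes. Il2ra, the high-affinity interleukin-2 receptor chain, was at 186 and 237 CPM in blasts against 147 and 183.

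**Figure D2:**
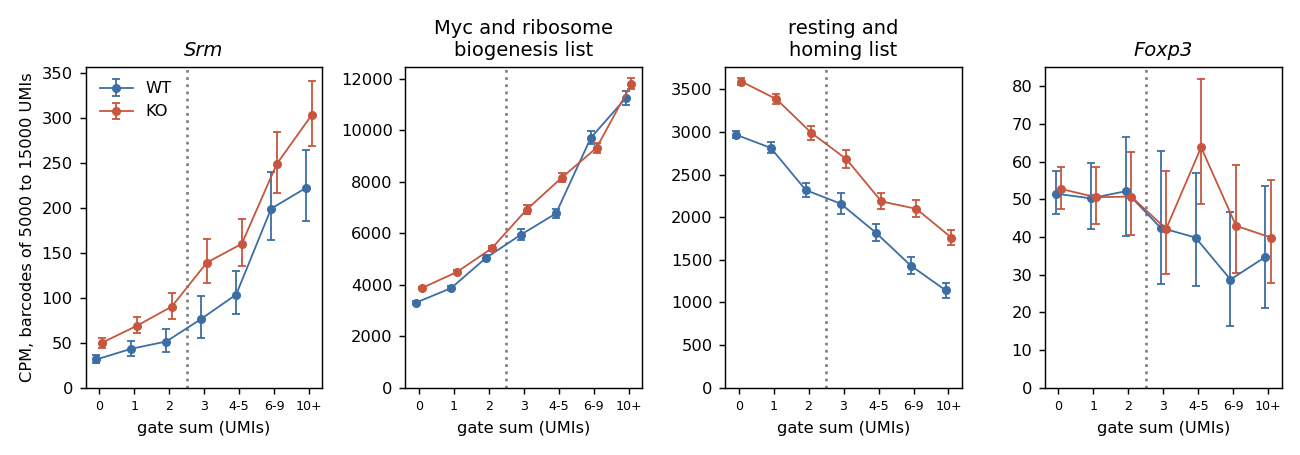
Level in CPM of Srm, Foxp3 and 2 summed gene lists against the gate sum (0, 1, 2, 3, 4 to 5, 6 to 9 and at least 10 UMIs, with the gate at the dotted line), for WT and KO barcodes of 5000 to 15000 UMIs, with 95% counting intervals. From sum 0 to at least 10, Srm went from 31.4 to 222 CPM in WT and from 49.998 to 303 in KO.

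With depth held to 5000 to 15000 UMIs, Srm, the Myc and ribosome biogenesis list and the resting and homing list differed step by step along the gate sum. Srm in WT took the values 31.4, 43.3, 51.4, 76.5, 104, 199 and 222 CPM from sum 0 to at least 10, and in KO 49.998, 68.9, 90.3, 139, 160, 249 and 303. Between sum 2 and sum 3 its intervals overlapped in WT (39.6–65.6 and 55.8–102) but not in KO (76.6–106 and 116–165). Tnfrsf4, encoding OX40, went from 279 to 1668 CPM in WT. The Myc and ribosome biogenesis list of 28 genes went from 3305 CPM at sum 0 to 9711 at sums of 6 to 9 and 11250.0 at 10 or more in WT, and from 3865 to 9314 and 11804 in KO. The resting and homing list was lower at each step, from 2968 to 1142 CPM in WT and from 3590.2 to 1761 in KO. Foxp3 was 51.5 CPM at sum 0 and 34.7 (21.2–53.7) at 10 or more in WT, and 52.8 and 39.9 (27.9–55.2) in KO. It was not lower at each step, and in KO it was highest at sums of 4 to 5, at 63.8 (48.8–82.0). Median depth also went up over this range, from 6301 to 8801 UMIs in WT and from 6333 to 9401 in KO.

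The blasts were larger in growth-related RNA than gate-negative barcodes in both libraries. Of 8727 genes with at least 100 UMIs in each library over the compared barcodes, 724 (8.3%) were at least 1.5-fold higher in blasts in both libraries and 629 (7.21%) at least 1.5-fold lower, with all-gene medians of −0.01 and −0.02 on the log2 scale. These are descriptions, since the gate divided the same barcodes. Of the Myc and ribosome biogenesis list, 27 of 28 genes were higher in both, with medians of 1.36 in WT and 1.12 in KO. The exception was Myc itself, the transcription factor after which the list is named, at 2.02-fold (1.63–2.498) in WT and 1.44-fold (1.21–1.70) in KO. Ncl, encoding nucleolin, was 2.41-fold (2.35–2.48) and 2.16-fold (2.12–2.20) higher, and the ribosome assembly factor Nop16 4.01-fold (3.42–4.70) and 2.84-fold (2.56–3.15). The list took 0.829% of blast UMIs in WT and 0.903% in KO, against 0.363% and 0.435% in gate-negative and 0.594% and 0.675% in dividing barcodes. An E-box was found in 5 of the 24 promoter windows (20.8%) of its 23 matched genes, in Mybbp1a, Nop2, Pes1, Utp20 and Wdr43, beside the 7.15% of all windows, and in 5 of the 17 windows (29.4%) of the p53 target list.

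Lists of protein folding, one-carbon, amino acid and polyamine genes were higher in 3 to 11 of their genes. Chaperones were higher in 11 of 15, with medians of 0.72 and 0.77, and the mitochondrial chaperonin Hspd1 reached 2.87-fold (2.68–3.08) in WT and 2.80-fold (2.66–2.95) in KO. In serine and one-carbon metabolism 6 of 10 were higher (medians 1.02 and 0.91), and Shmt1, the cytosolic serine hydroxymethyltransferase, had the highest ratio in the weaker library among the ranked genes outside the gate, at 5.88-fold (4.44–7.78) and 4.55-fold (3.76–5.50). Phgdh and Psat1, which make serine, were 2.03-fold and 2.45-fold higher in WT and 2.40-fold and 2.70-fold in KO. Amino acid uptake genes were higher in 3 of 8 (0.27 and 0.32), with the leucine transporter Slc7a5 at 2.68-fold (1.99–3.58) and 2.84-fold (2.43–3.31). Polyamine genes were higher in 3 of 8 (0.50 and 0.38), among them Odc1, which makes putrescine, at 3.23-fold (2.91–3.59) and 2.36-fold (2.15–2.59). Serine and one-carbon genes took 0.0628% of WT and 0.0952% of KO blast UMIs, less than the 0.0977% and 0.124% in dividing barcodes. Polyamine genes took 0.192% and 0.202%, against 0.210% and 0.206% in dividing ones. The chaperone and amino acid lists took more of blast UMIs than of dividing UMIs in both libraries.

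Genes of DNA replication were higher in part, and division genes were limited by the rule. In the list of G1 and DNA replication genes 8 of 20 were higher and 2 lower (medians 0.70 and 0.64). The list took 0.179% of WT and 0.227% of KO blast UMIs, less than the 0.226% and 0.249% in dividing barcodes. The replication helicase subunit Mcm3 was 2.60-fold (2.27–2.97) and 2.35-fold (2.16–2.55) higher and the G1 kinase Cdk4 1.90-fold and 1.97-fold, while the 2 lower genes were the kinase inhibitor Cdkn1b, at 0.481 and 0.590, and the transcription factor E2f2, at 0.634 and 0.615. Among the 15 highest ratios were the uracil DNA glycosylase gene Ung, at 4.40-fold (3.45–5.61) and 4.03-fold (3.48–4.65), and the deoxycytidylate deaminase gene Dctd, at 5.48-fold (3.79–7.90) and 3.97-fold (2.92–5.39). The same 15 held 3110082I17Rik at 5.31-fold and 4.20-fold, the methyltransferase gene Smyd5 at 4.75-fold and 4.03-fold, the Myc-responsive gene Cdca7 at 4.22-fold and 3.38-fold, the pseudouridine synthase gene Pus7 at 3.76-fold and 3.38-fold, B9d1 at 3.86-fold and 3.38-fold, the zinc finger gene Hivep3 at 4.42-fold and 3.25-fold, and Mcrip2 at 3.19-fold and 2.97-fold. The division genes used to bar cycling cells had a median sum of 1 in both libraries, and 61 WT and 106 KO blasts were at a sum of 3 or 4, just inside that limit.

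Receptors and signalling genes showed a split between families. Of 8 inhibitory receptor genes 5 were higher (medians 1.16 and 0.95), among them Pdcd1, encoding PD-1, at 2.93-fold (2.44–3.51) and 2.41-fold (1.86–3.10), Cd160 at 4.13-fold (3.62–4.71) and 3.46-fold (3.004–3.99), and Lag3 at 3.70-fold (2.62–5.19) and 3.33-fold (2.59–4.26). Of 20 TNF receptor and NF-kB genes 4 were higher (0.32 and 0.22), with Tnfrsf4 at 3.63-fold (3.47–3.79) and 2.74-fold (2.65–2.83), at 1108 and 1043 CPM in blasts. Of 18 reporters of T cell receptor signalling 4 were higher (0.37 and 0.09): the transcription factor Irf4 was at 2.92-fold (2.28–3.73) and 1.83-fold (1.46–2.28), and the early response gene Egr1, below the fold, at 0.723 (0.645–0.809) and 0.721 (0.649–0.798). Cd69 was at 0.635 and 0.676 and Junb at 0.689 and 0.628. In sum the list took less of the blast UMIs, 0.206% in WT and 0.207% in KO, against 0.230% and 0.249% in gate-negative barcodes. Cd83, a surface protein of activated lymphocytes, was 3.66-fold (3.12–4.28) and 3.60-fold (3.07–4.22) higher.

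Few Treg identity genes passed the fold. Of 13 measured, 2 were higher (0.17 and 0.26), Tnfrsf18 and the tetraspanin gene Cd81, of which Tnfrsf18 stood at 1.82-fold (1.71–1.93) and 1.86-fold (1.79–1.94). Among survival genes of the Bcl2 family 3 of 11 were higher (0.27 and 0.53): Bcl2l1, encoding Bcl-xL, at 1.92-fold (1.59–2.30) and 1.76-fold (1.53–2.02), and the near-identical copies Bcl2a1b and Bcl2a1d, whose reads can be split between them and whose single values are uncertain. Bcl2 itself was at 0.688 (0.627–0.753) and 0.663 (0.625–0.704). Glycolysis had 3 higher and 1 lower of 15 (0.37 and 0.46), with the triose isomerase Tpi1 at 1.66-fold and 1.90-fold. Glycolysis genes took 0.475% of WT and 0.540% of KO blast UMIs. Their share was 0.690% and 0.559% in dividing barcodes, and 0.553% and 0.493% in Klrg1 or Cxcr3 barcodes. Fatty acid oxidation had 1 higher and 1 lower of 18 (0.08 and 0.06).

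The resting and homing list was lower in blasts, in 12 of 16 genes, with medians of −1.06 and −0.77. Klf2, a transcription factor that keeps T cells in circulation, was at 0.443 (0.408–0.481) in WT and 0.656 (0.626–0.688) in KO, and its target S1pr1, the receptor for exit from lymphoid tissue, at 0.432 (0.376–0.494) and 0.512 (0.462–0.566). The naive T cell gene Dapl1 was lowest, at 0.189 (0.129–0.269) and 0.314 (0.254–0.385). Interferon-stimulated genes were lower in 5 of 18 (−0.36 and −0.81), and the effector Treg list was near even, with 1 higher and 1 lower of 14 (−0.26 and −0.06). The 10 lowest ratios held B cell genes (Cd79a, Igkc, Iglc1), basophil protease genes (Mcpt8, Prss34) and others (H2-Aa, Ctsh, Napsa, Fcgr3, Mgst1). Cd79a, the B cell receptor subunit gene, had 4 WT and 8 KO UMIs in blasts, at ratios of 0.0690 (0.0187–0.178) and 0.167 (0.0711–0.334), and Iglc1 had 0 and 2 UMIs. Mcpt8 had 5 and 6 UMIs, at 0.0865 (0.0279–0.204) and 0.0703 (0.0256–0.154).

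**Figure D3:**
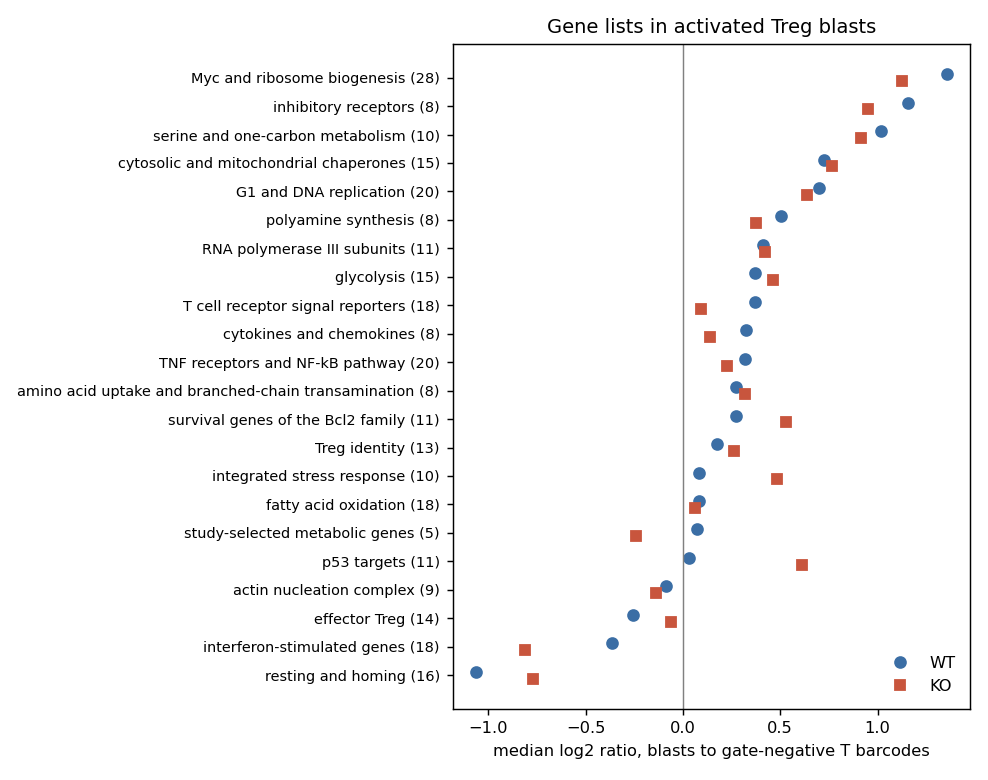
Median log2 ratio of each gene list in blasts against gate-negative barcodes of the WT (circles) and KO (squares) library, with the number of genes measured in brackets and the line at no difference. Of the lists shown, which leave out the gate genes, the Myc and ribosome biogenesis list stood highest, at 1.36 and 1.12, the resting and homing list lowest in WT, at −1.06, and the study's 5 metabolic genes near the line, at 0.07 and −0.24.

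Blasts made up 5.69% (5.13–6.29) of T barcodes in WT and 7.87% (7.30–8.47) in KO, a difference of 2.18 percentage points (1.36–2.99). The denominators differed in makeup, since barcodes with Klrg1 or Cxcr3 were 15.0% of WT and 1.16% of KO T barcodes and dividing ones 25.5% and 21.1%. Of the barcodes that could be blasts, that is blasts and gate-negative together, the shares were 9.56% (8.64–10.6) and 10.1% (9.40–10.9), a difference of 0.557 points (−0.659 to 1.74). The depth of T barcodes also differed, with medians of 6178 UMIs in WT and 4399 in KO.

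Within bins of depth the KO share was higher in 5 of 6 bins, and the interval of the difference lay above 0 in 2. At 3000 to 4000 UMIs the share was 1.47% in WT and 4.74% in KO, 3.26 points apart (1.75–4.65), and at 4000 to 6000 it was 5.79% and 8.94%, 3.15 points apart (1.26–5.01). At 12000 to 20000 UMIs 49 of 106 WT barcodes (46.2%) and 82 of 151 KO barcodes (54.3%) were blasts. The share was 2.29% and 2.03% in the shallowest bin, so depth and the gate cannot be told apart in an unbinned share.

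After thinning to 2000 UMIs at least 1 gate UMI was seen in 19.8% of WT and 24.8% of KO barcodes that could be blasts, 5.00 points apart (3.33–6.64). In erythroid barcodes it was seen in 12 of 113 in WT (10.6%) and 12 of 87 in KO (13.8%). The erythroid barcodes were not free of T cell RNA. They held a median of 5 (WT) and 4 (KO) UMIs over the T cell genes of the rule. Median raw depth was 16812 and 11260.0 UMIs in the erythroid barcodes. Of the gate genes, Lad1 differed most, at 3.44% and 6.59% (3.15 points, 2.29–3.98), beside 0 of 113 and 2 of 87 erythroid barcodes. Penk differed by 0.0387 points (−0.901 to 0.937), and Foxp3, outside the gate, by −0.281 points (−1.51 to 0.913). The thinned shares of Nefh and Pdzk1ip1 were below those in erythroid barcodes, which rest on 3 to 5 barcodes, and no difference in detection is read from them.

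**Figure D4:**
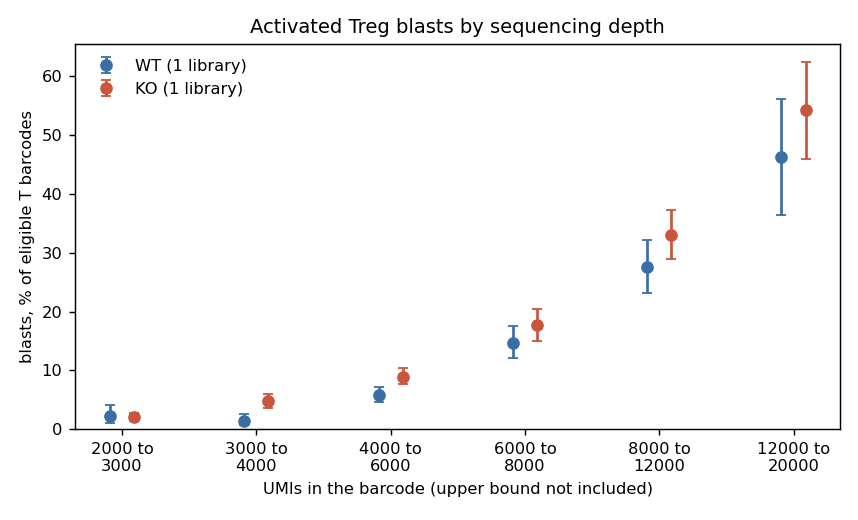
Share of barcodes that were blasts, in percent of blasts and gate-negative barcodes, against UMIs per barcode (bins from 2000 to 20000), for WT and KO with 95% Clopper-Pearson intervals. At 3000 to 4000 UMIs it was 1.47% in WT and 4.74% in KO, and at 12000 to 20000 UMIs 46.2% and 54.3%.

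Between genotypes, the Myc and ribosome biogenesis and chaperone lists of KO blasts were close to those of WT blasts. The serine and one-carbon list and the G1 and DNA replication list had medians of 0.24 and 0.39. The list medians farthest from 0 were those of effector Treg, the study's metabolic and inhibitory receptor genes, which were below 0, and integrated stress response, interferon and p53 genes, which were above 0. Of 6400 genes with at least 100 UMIs over both libraries, 250 (3.91%) were at least 1.5-fold higher in KO blasts and 587 (9.17%) at least 1.5-fold lower, with a median of −0.04. In gate-negative barcodes 352 of 10015 genes (3.51%) were higher and 1099 (11%) lower, with a median of −0.09. Of the 6369 genes measured in both classes, 99 were higher in both, of 244 in blasts and 167 in gate-negative barcodes. Lower in both were 254, of 579 in blasts and 364 in gate-negative barcodes. No gene of the Myc and ribosome biogenesis list passed 1.5-fold in either direction (28 genes, median 0.03, beside 0.26 in gate-negative barcodes), nor of the 15 chaperones (0.19). Srm, at 1.502-fold (1.34–1.68) from 424 WT and 1120 KO UMIs, was 1.77-fold in gate-negative barcodes.

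Genes activated by p53 were higher, in 6 of 11 (median 0.60). The list median was 0.31 over 14 genes in gate-negative barcodes and 0.67 over 14 in dividing barcodes. Phlda3, a repressor of the kinase Akt (chromosome 1, 135766119 to 135769136, plus strand), had 22 UMIs in WT and 310 in KO blasts, or 7.53 and 60.3 CPM, a ratio of 8.01 (5.20–13.0). The cell cycle inhibitor Cdkn1a (chromosome 17, 29090976 to 29100727, plus strand) had 24 and 335 UMIs, or 8.21 and 65.2 CPM, a ratio of 7.94 (5.24–12.6). In WT 16 of the 24 Cdkn1a UMIs lay in 1 of 6 blasts, whereas in KO they came from 111 blasts. After thinning, Cdkn1a was seen in 0.843% of WT and 7.62% of KO blasts (1.69% and 16.9% unthinned), beside 0.885% and 1.15% of erythroid barcodes. The ratios in gate-negative barcodes were 5.24 for Phlda3 and 4.47 for Cdkn1a. In dividing barcodes they were 12.6 (9.88–16.4) and 6.10 (5.29–7.05). The pro-death genes Bbc3 and Bax were at 2.39 (1.64–3.59) and 1.75 (1.61–1.91), and Ccng1, a p53-induced cyclin, at 1.97 (1.54–2.54) beside 1.04 in gate-negative barcodes.

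Integrated stress response genes, which are switched on when translation initiation is limited, were higher in 6 of 11 (median 0.86, beside 0.42 over 12 genes in gate-negative barcodes). Asns, the asparagine synthetase, had 48 WT and 322 KO UMIs, a ratio of 3.81 (2.81–5.28). It was seen after thinning in 2.25% and 7.77% of blasts but in 23.0% and 16.1% of erythroid barcodes, and the part of free RNA in this ratio was not tested. Trib3, a feedback inhibitor of this response, gave 1 UMI in WT and 93 in KO, under the limit of 100 for the count, and the transcription factor Atf5 14 and 114, a ratio of 4.63 (2.65–8.74). Atf4 and Ddit3 were both at 1.82. Eif4ebp1, which restrains cap-dependent translation, was at 3.18 (2.41–4.25) in blasts and 1.38 (1.20–1.59) in gate-negative barcodes. In serine and one-carbon metabolism 3 of 10 were higher and none lower (median 0.24): the serine enzyme Phgdh at 1.82 (1.66–2.00), and the mitochondrial enzymes Shmt2 at 2.20 (1.83–2.66) and Mthfd2 at 1.78 (1.53–2.09).

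The 12 highest ratios also held 3 genes of the suppressor of cytokine signalling family. Cish, Socs1 and Socs2, which dampen interleukin-2 and related signals, were at 2.63 (2.26–3.07), 3.02 (2.29–4.04) and 2.72 (2.05–3.66), with 2.16, 2.91 and 2.28 in gate-negative barcodes. Lta, a cytokine of the TNF family, was at 2.83 (2.27–3.56), Bcl3, an NF-kB cofactor, at 2.54 (1.86–3.54), and the surface receptor gene Treml2 at 2.55 (2.06–3.17). Igfbp4, a carrier of insulin-like growth factor, had 102 and 643 UMIs, a ratio of 3.58 (2.90–4.46). In dividing barcodes the ratios were 7.33 (6.78–7.94) for Igfbp4, 5.07 (4.52–5.70) for Lta, 3.34 (3.08–3.63) for Treml2 and 2.18 (1.93–2.47) for Bcl3. Stfa1, a cysteine protease inhibitor of neutrophils, was at 2.79 (2.42–3.21), but 181 of 241 WT and 1002 of 1181 KO UMIs lay in the 3 blasts with many granule UMIs, and without them the ratio was 1.70 (1.26–2.32). Its direction turned in 3 other settings, to log2 ratios of −0.35 at 1 gate UMI after thinning, −2.08 at a gate sum of at least 5 and −1.70 at a division sum of at most 1.

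Some resting and interferon genes were higher in KO blasts. In the resting and homing list 5 of 16 were higher and none lower (median 0.15). The chemokine receptor Ccr7, which brings T cells to lymph nodes, had 142 WT and 604 KO UMIs, a ratio of 2.42 (2.01–2.92) beside 1.73 in gate-negative barcodes, and Klf2 was at 1.86 (1.70–2.03) beside 1.25. Interferon-stimulated genes were higher in 7 of 14 (median 0.69, beside 1.22 over 20 genes in gate-negative barcodes). Among them were Isg15, a ubiquitin-like protein, at 2.17 (1.84–2.56), and the guanylate-binding protein gene Gbp2 at 1.88 (1.48–2.42), beside 3.10 (2.84–3.39) in gate-negative barcodes. G1 and DNA replication genes were higher in 5 of 16 (0.39), with Mcm3 at 1.55 (1.36–1.77) and the transcription factor E2f1 at 1.93 (1.30–2.94).

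Effector Treg genes were lower, in 11 of 15, with a median of −1.92 beside −1.63 over 18 genes in gate-negative barcodes. The calcium-binding protein gene S100a4 had 403 WT and 31 KO UMIs, a ratio of 0.0437 (0.0293–0.0631), and S100a6 1541 and 277, a ratio of 0.102 (0.0896–0.116). S100a6 was seen in 73.3% of WT and 18.8% of KO blasts, or 37.9% and 7.01% after thinning, beside 65.5% and 12.6% of erythroid barcodes, or 14.2% and 0% after thinning. Maf, a transcription factor of the interleukin-10 programme, was at 0.193 (0.139–0.265), the adhesion receptor gene Itgb1 at 0.218 (0.182–0.261) beside 0.117 (0.107–0.127) in gate-negative barcodes, and the cytotoxic protease gene Gzmb at 0.199 (0.125–0.307). Among the 12 lowest ratios were also S100a11 at 0.253 (0.218–0.292), the smooth muscle actin gene Actg2 at 0.144 (0.107–0.191), the endosome tether gene Eea1 at 0.276 (0.234–0.325), Cnpy2 at 0.279 (0.225–0.344) and 1110038B12Rik at 0.237 (0.189–0.294). Barcodes with Klrg1 or Cxcr3, markers of effector Treg, had been removed from blasts by the rule in both libraries.

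Receptor genes were lower in part. Of the inhibitory receptors 4 of 8 were lower and none higher (median −0.65): Pdcd1 at 0.291 (0.224–0.375) from 182 and 93 UMIs, Cd160 at 0.490 (0.422–0.568), Btla at 0.505 (0.384–0.664) and the transcription factor Tox, which is held in this list, at 0.574 (0.499–0.661). Lag3 did not differ beyond its interval, at 1.09 (0.785–1.52). Nrp1, a semaphorin receptor of thymus-derived Treg, was at 0.242 (0.182–0.319). Reporters of T cell receptor signalling had 1 higher and 4 lower of 17 (−0.04), with Egr3 at 0.346 (0.252–0.474), Nfatc1 at 0.441 (0.369–0.527), and Irf4 at 0.642 (0.487–0.847) beside 1.02 (0.856–1.23) in gate-negative barcodes. The TNF receptor and NF-kB list had 2 higher and 1 lower of 20 (−0.05), with the adhesion molecule gene Icam1 at 1.98 (1.51–2.64) and Cd83 at 0.602 (0.506–0.717), and Tnfrsf4 was near even at 0.941 (0.901–0.983).

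Treg identity and survival genes differed in both directions. Of 13 identity genes 2 were higher and 1 lower (0.25): the receptor gene Gpr83 at 1.92 (1.62–2.28), Socs2 as above, and Ikzf2, encoding Helios, at 0.641 (0.605–0.679). Foxp3 had 112 and 229 UMIs and a ratio of 1.16 (0.924–1.47), so that no difference was detectable at this depth. In the Bcl2 family 2 were higher and 3 lower of 11 (−0.05), where Bax was among the higher and the pro-death gene Bcl2l11, encoding Bim, at 0.638 (0.541–0.752) among the lower.

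The metabolic genes that the study had chosen on these samples were lower in 5 of 5 (median −1.10), which is not independent evidence of their direction. The ratio was 0.372 (0.340–0.406) for Ndufa4, a subunit gene of the respiratory chain, 0.390 (0.335–0.454) for the succinate-CoA ligase gene Suclg1, 0.466 (0.397–0.547) for Hadha, the trifunctional enzyme of fatty acid oxidation, 0.594 (0.556–0.635) for the ATP synthase gene Atp5l and 0.626 (0.542–0.722) for the actin nucleator gene Actr2. In gate-negative barcodes they were 0.442, 0.591, 0.542, 0.748 and 0.657. The fatty acid oxidation list had 3 lower of 16 (−0.22, beside −0.33 over 18 genes in gate-negative barcodes), with Acadl at 0.526 (0.418–0.662) and Cpt1a at 0.522 (0.369–0.737). Glycolysis had 2 lower of 14 (0.13), among them the glucose transporter gene Slc2a3 at 0.367 (0.251–0.532).

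**Figure D5:**
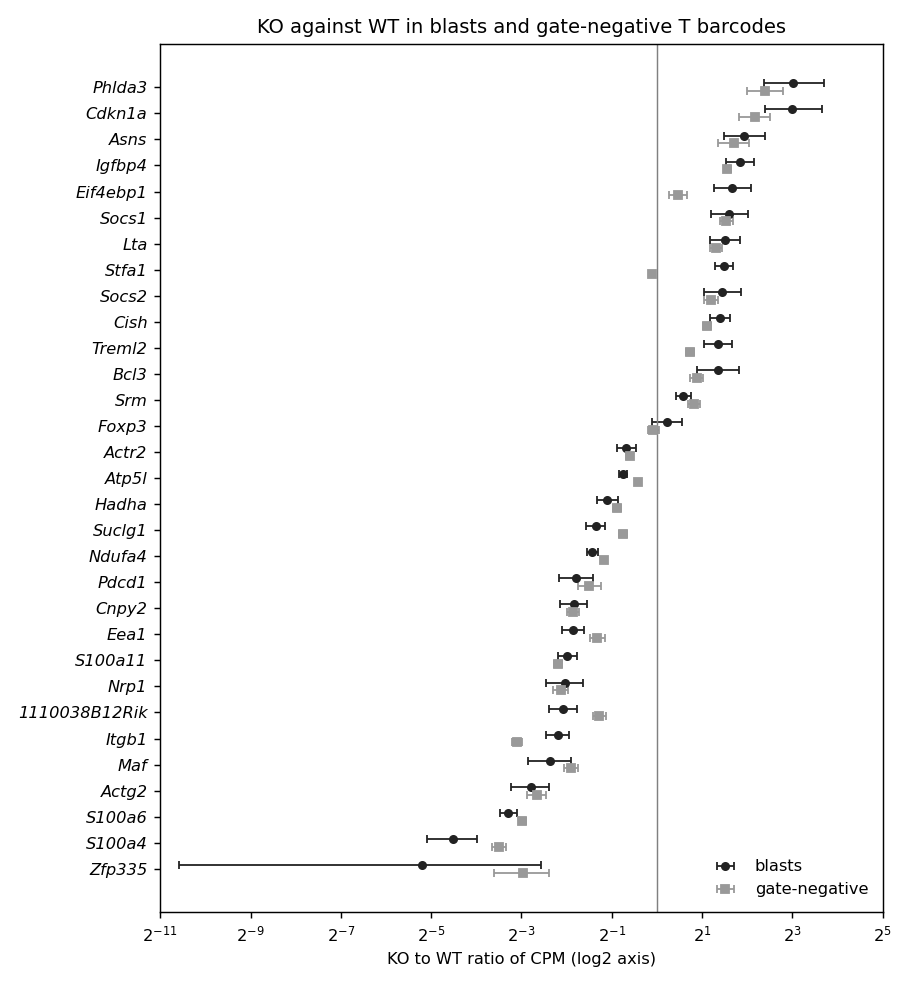
KO to WT ratio of CPM, on a log2 axis, of named genes in blasts (black) and in gate-negative barcodes (grey), with 95% counting intervals and a line at equal levels. Phlda3 and Cdkn1a were at 8.01 and 7.94 in blasts, and S100a4 at 0.0437.

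The remaining lists had medians between −0.25 and 0.14, with members past the fold in both directions. Cytokines and chemokines had 2 higher and 3 lower of 8 (−0.16), with Lta as above and Ccl5 at 0.195, amino acid uptake 1 and 1 of 8 (−0.25, Slc7a5 at 2.14, 1.64–2.83), actin nucleation 1 lower of 9 (−0.20), RNA polymerase III 1 lower of 9 (−0.03), and polyamine synthesis 1 higher of 8 (0.14). Against gate-negative barcodes the same lists had medians of 0.32 and 0.14 (cytokines), −0.09 and −0.14 (actin nucleation) and 0.41 and 0.42 (RNA polymerase III). The integrated stress response and p53 lists, which had 2 of 10 and 2 of 11 genes higher in blasts, stood at 0.08 and 0.03 in WT but 0.48 and 0.61 in KO. Of the 23 lists, 12 had a median above 0 between genotypes.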

How the data were processed

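The values came from droplet single-cell RNA-seq of sorted splenic YFP+7AAD- cells. The authors deposited, for each of 2 libraries, raw UMI counts for each gene and barcode, for which the submitters' processing notes name Cell Ranger 5.0.1 and mm10. The matrices held 14524 WT and 18134 KO barcodes with 32285 features, and the study's filters had not been applied to them. UMIs were summed over the barcodes of a class (2922522 in WT and 5139409 in KO blasts) and scaled to the total (CPM). CPM intervals were exact Poisson, ratio intervals exact conditional binomial and shares Clopper-Pearson with Newcombe differences, all at 95%. Log2 medians used sums with 0.5 added. A gene counted as higher or lower at 1.5-fold with at least 100 UMIs. Each list median was over the genes that met this limit in the class, so the genes can differ between classes.

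The members and gene lists were chosen with earlier results of these data known. Named genes were the gate genes, Srm, Zfp335, Foxp3, 5 metabolic genes of the study, the 15 highest and 10 lowest ratios of blasts to gate-negative barcodes by the weaker library, the 12 highest and 12 lowest KO to WT ratios at 200 or more UMIs (globin, granule, mitochondrial, ribosomal RNA-like and sex-linked genes left out), and up to 6 of each list. Some genes that met this rule are not reported here. Thinning drew 2000 UMIs from each barcode. Erythroid barcodes, the background for UMI shares, had at least 10 UMIs summed over erythroid marker genes, a limit chosen after seeing the data. No limit was set on their T cell genes, so this background could hold T cell RNA. Doublets were kept, and leaving out the top 5% (WT) and 8% (KO) of Scrublet scores was an alternative. The ratio steps were tested on simulated data. Positions came from GENCODE vM21 on GRCm38 and promoters from RefSeq GRCm38.p6. Software was Python 3.11.15, numpy 2.4.6, scipy 1.17.1, pandas 2.3.3, scanpy 1.11.5 and matplotlib 3.10.9.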

Additional observations from a re-analysis of the deposited data

Results flagged for a closer look

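The KO to WT ratio of 5 myeloid genes went in opposite directions in blasts and in gate-negative barcodes, a difference that was not tested. It was 1.86 in blasts and 0.469 in gate-negative barcodes for the lysozyme gene Lyz2, 1.81 and 0.554 for Stfa2l1, 1.81 and 0.436 for Cstdc4, and 1.71 and 0.358 for Cstdc5, all 3 of the stefin protease inhibitor family. For Anxa1, encoding annexin A1, it was 4.07 and 0.442. Without the 1 WT and 2 KO blasts that held over 100 UMIs of S100a8 and S100a9, the ratios in blasts were 0.788 (0.533–1.17) for Lyz2, 0.900 (0.490–1.69) for Stfa2l1, 0.950 (0.639–1.43) for Cstdc4, 0.652 (0.516–0.825) for Cstdc5 and 0.499 (0.154–1.57) for Anxa1, so the higher KO values rested on these 3 barcodes.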

How the results depend on the processing

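No paired analysis was possible because each genotype had 1 library, and for the same reason no replicate could be left out. The difference in blast share of T barcodes (2.18 points) was 3.87 at a gate sum of at least 2, 1.01 at 5, 0.688 at 3 after thinning, 7.50 at 1 after thinning, 5.45 within 5000 to 15000 UMIs, 0.375 (−0.514 to 1.25) with Klrg1 and Cxcr3 barcodes kept in, 1.31 with a division sum of at most 1 and 0.854 with Lad1 out of the gate. In 10 other settings it moved by less than its counting interval. The genes past 1.5-fold between genotypes (250 higher, 587 lower) became 645 and 1411 with 20 UMIs, 86 and 152 with 400 UMIs, 134 and 185 with thinned blasts, and 367 lower at a gate sum of at least 5. Scaling by the median gene ratio gave 317 and 513. Zfp335 had a ratio of 0 (no KO UMI) with thinned blasts, at a gate sum of at least 5 and at a division sum of at most 1. The low-count filters did not apply to it or to named genes. Stfa1 reversed, with log2 ratios of −0.35 at 1 gate UMI after thinning, −2.08 at a gate sum of 5 and −1.70 at a division sum of at most 1. Both KO blasts with many granule UMIs had a gate sum of 3 and so missed the gate of 5, and for the other settings the cause was not tested. The genes past the fold against gate-negative barcodes (724 and 629) became 1050.0 lower with 20 UMIs, 444 and 354 with 400, and 390.0 lower within 5000 to 15000 UMIs. The KO median of cytokines was −0.0889 there (0.14 in all barcodes). Of the other values, 399 named ratios were as reported and 42 moved. Among list medians over all settings, 302 between genotypes were as reported and 18 moved. Against gate-negative barcodes 281 were as reported and 40 moved. The log2 ratio ranged from 2.12 to 5.12 for Cdkn1a and from −3.67 to −2.96 for S100a6. The settings with 10 T cell UMIs and without the 3 blasts with granule UMIs were added after seeing the data.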

Other observations

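Chemokine genes in blasts were at low counts and uneven between the libraries. Ccl4, encoding the chemokine MIP-1 beta, had 94 UMIs in WT blasts and 4 in KO blasts, and Ccl1 had 33 and 0, whereas Ccl5 had 111 and 38, a ratio of 0.195 (0.131–0.284). The chemokine gene Xcl1 was 6.19-fold (4.39–8.74) higher in blasts than in gate-negative barcodes in WT and 7.07-fold (4.59–11.01) in KO, from 72 and 54 UMIs. Xist, expressed from the inactive X chromosome, was at 192 CPM in WT and 439 in KO blasts, and the Y-linked genes Ddx3y at 17.5 and 19.8 and Eif2s3y at 36.3 and 19.1, the latter a ratio of 0.526 (0.395–0.699), so each library held RNA of both sexes.

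Blasts with at least 3 Penk UMIs numbered 102 in WT (28.7%) and 143 in KO (21.8%), and those with none 197 (55.3%) and 415 (63.3%). This division uses a gate gene and is a description. Of 3293 genes, 3 were at least 1.5-fold higher in Penk-rich blasts in both libraries: Ahnak at 1.69-fold (1.38–2.08) and 1.63-fold (1.25–2.12), Tiam1 at 1.62-fold and 1.64-fold, and Glipr2 at 1.503-fold and 1.52-fold. Another 11 were at least 1.5-fold lower, of which 4 (Stfa1, Stfa2, Cstdc4 and Cstdc5) had no such difference in both libraries once the 3 blasts with many granule UMIs were left out, a setting added after seeing the data. Without those blasts 3 were higher and 6 lower, of 3271 genes. Lower with and without them were the transcription factor gene Irf8, at 0.556 and 0.538, and Gpr183, a receptor for oxysterols, at 0.634 and 0.597. Srm was at 0.790 and 0.786, and Il2ra at 1.32 and 1.29.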
